A study of Mus musculus with 12 samples.

Results

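The endoplasmic reticulum (ER) chaperone and unfolded protein genes described here are 10 genes taken by symbol from the deposited gene tables: Hspa5, Hsp90b1, Dnajb9, Xbp1, Edem1, Sdf2l1, Herpud1, Creld2, Pdia4 and Calr. They are 10 of the 57180 genes listed, and all 10 were among the 19350 genes with enough reads to be tested. The RNA came from livers of 12 mice, with 3 per sex in each of 2 genotypes, labelled KO and Het. All 12 mice were Csa-/- (Csa is listed as Ercc8 in the gene tables) and had received AAV9-CSA, a vector carrying human CSA under the ubiquitous CBA promoter, by injection into the brain ventricles as newborns. The Het mice were Csa-/- Xpa+/- and served as littermate controls of matched age. The KO mice were taken at the humane endpoint. Their genotype is written as Csa-/- Xpa+/+ in the sample labels and in the methods, whereas the study elsewhere describes the diseased mice as lacking Xpa as well. The groups are therefore called KO and Het as labelled. The strain and the age of each mouse are not given in the sample labels, and disease state and genotype cannot be told apart in this design.

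Secretory cells such as hepatocytes fold most of their exported protein in the ER. When unfolded protein accumulates there, 3 sensors in the ER membrane, Ern1 (IRE1), Atf6 and Eif2ak3 (PERK), start the unfolded protein response. Ern1 splices the mRNA of the transcription factor Xbp1, Atf6 is cut to release a transcription factor, and Eif2ak3 slows translation and raises Atf4. Xbp1 and Atf6 act on promoter elements of chaperone and degradation genes, among them the ER stress response element (ERSE).

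The ERSE is CCAAT and CCACG separated by 9 bases. It was looked for on both strands of promoter windows of 300 bases (250 before to 50 after the start of each gene) because it is the element these genes are best known to share. An exact ERSE was present in 4 of the 10 genes, Hspa5, Hsp90b1, Creld2 and Calr, and in 0.119% of all 32851 windows. With 1 mismatch allowed it was present in 6 of the 10 genes and in 1.5% of windows. The related ERSE-II (ATTGG, 1 base, CCACG) was found in Herpud1 and in 0.0365% of windows. The core TGACGTG of the unfolded protein response element was found in Hspa5 and in 2.01% of windows. The matches in the 5 genes are printed below from the RefSeq promoter table (GRCm38.p6), each read 5′ to 3′ on the strand of its gene and placed by an exact match on GRCm39, with the paired half-sites in capitals. CGTGG and ATTGG are the half-sites of an ERSE that lies on the other strand.
Hspa5, chr2:34662032-34662060, plus strand: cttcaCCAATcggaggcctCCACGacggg
Hsp90b1 distal, chr10:86541497-86541525, minus strand: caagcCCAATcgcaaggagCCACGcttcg
Hsp90b1 proximal, chr10:86541392-86541420, minus strand: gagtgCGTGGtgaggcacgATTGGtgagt
Creld2, chr15:88703683-88703781, plus strand: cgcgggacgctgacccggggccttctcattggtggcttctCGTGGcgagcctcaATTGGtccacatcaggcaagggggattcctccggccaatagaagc
Calr, chr8:85573664-85573762, minus strand: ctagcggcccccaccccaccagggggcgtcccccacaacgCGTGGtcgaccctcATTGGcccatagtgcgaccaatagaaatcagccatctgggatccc
Herpud1 (ERSE-II), chr8:95113000-95113020, plus strand: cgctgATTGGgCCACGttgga
The first base of the element lay 65 bases before the RefSeq start in Hspa5, and between 52 bases (Herpud1) and 212 bases (Hsp90b1 distal) before it in the others. The M39 annotation places the Hspa5 stretch in an exon of Hspa5, the proximal Hsp90b1 stretch in an exon of Hsp90b1 and the distal one in an exon of the neighbouring Ttc41. A match is a description of the letters and was not tested as a binding site.

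Each liver had 30044781 to 43634046 counts assigned to genes, and the smallest library was that of Het_M_137, a Het male named by its label. Xpa, the gene that differs between the genotypes in the labels, was lower in KO livers, at 0.992 to 1.83 counts per 1000000 (CPM, scaled by TMM factors) against 3.10 to 6.34 CPM in Het livers (log2 fold change -1.83 ± 0.16 (SE), adjusted p = 4.15e-05). This order is the opposite of what the labelled Xpa+/+ and Xpa+/- genotypes would give, so directions below are those of the livers labelled KO and Het. Reads assigned to mouse Ercc8 were higher in KO livers, at 22.9 ± 8.81 CPM against 7.16 ± 1.40 CPM (SD, n = 6 each). Hepatocyte markers were abundant in every liver, with a summed level of 71064 to 94278 CPM over 9 genes in Het livers and 88767 to 148653 CPM in KO livers. Of the 9 genes 1 was called higher and 1 lower in KO livers. Het_M_137 had the lowest hepatocyte sum and also the highest cholangiocyte sum (60.8 CPM) of the 12 livers. Of the markers of other cells, 5 of 9 Kupffer cell genes were higher in KO livers (summed level 185 to 562 CPM, against 135 to 357 in Het livers). Lower in KO livers were 4 of 7 sinusoidal endothelial genes (summed level 170 to 275 CPM against 214 to 403) and 2 of 8 stellate cell genes (126.2 to 272 CPM against 248 to 452). The sinusoidal sum was 187 to 267 CPM in KO and 311 to 403 in Het females. In males it was 170 to 275 CPM in KO and 214 to 299.6 in Het livers. None of the 8 tested plasma cell and B cell genes passed the test, and their sum was 4.74 to 53.2 CPM in Het livers and 6.33 to 28.6 CPM in KO livers. Of the pancreatic acinar genes, 5 of 8 were at 0 counts in all 12 livers, and of the 2 tested Cela1 was lower and Cela2a higher in KO livers. In the remaining lists 1 of 3 neutrophil genes was higher, 1 of 7 T and NK cell genes and 1 of 3 erythroid genes were lower, and no cholangiocyte gene of 5 was called. The part of these cell populations in the levels below was not tested, and in bulk RNA fewer cells of a type and less RNA per cell cannot be told apart.

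All 10 genes had lower fitted expression in KO than in Het livers over both sexes, and 1 of them, the chaperone gene Hsp90b1, passed the test. The log2 fold changes (KO against Het) ran from -0.94 for Creld2 to -0.12 for Xbp1, with a median of -0.46 against 0.02 over all tested genes. The adjusted p of Hsp90b1 was 0.00674. Thus 1 of 10 was called lower, where 10.2% of all tested genes were called lower and 12.2% higher. In males 3 of 10 were called lower, Hspa5, Hsp90b1 and Dnajb9, against 2.98% of all tested genes, and the median of the 10 was -0.81. In females 0 of 10 were called, against 5.1% of all genes called lower, and the values ran from -0.47 to 0.21 with a median of -0.07 and 6 of 10 below 0. At an unadjusted p under 0.05 there were 6 genes over both sexes, 7 in males and 1 in females. Among all tested genes 36.1% were under that limit over both sexes, 24.1% in males and 29.0% in females. DESeq2 called 5 genes over both sexes (Hspa5, Hsp90b1, Dnajb9, Creld2 and Calr), 4 in males and 1 in females, whereas limma on log2(TPM + 1) called 1 gene over both sexes, 0 in males and 1 in females. Among all tested genes in males, DESeq2 called 2260, against 1441 in the main fit. Over both sexes the alternative fits called 3194 to 5045 of all genes, against 4330 in the main fit.

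**Figure D1:**
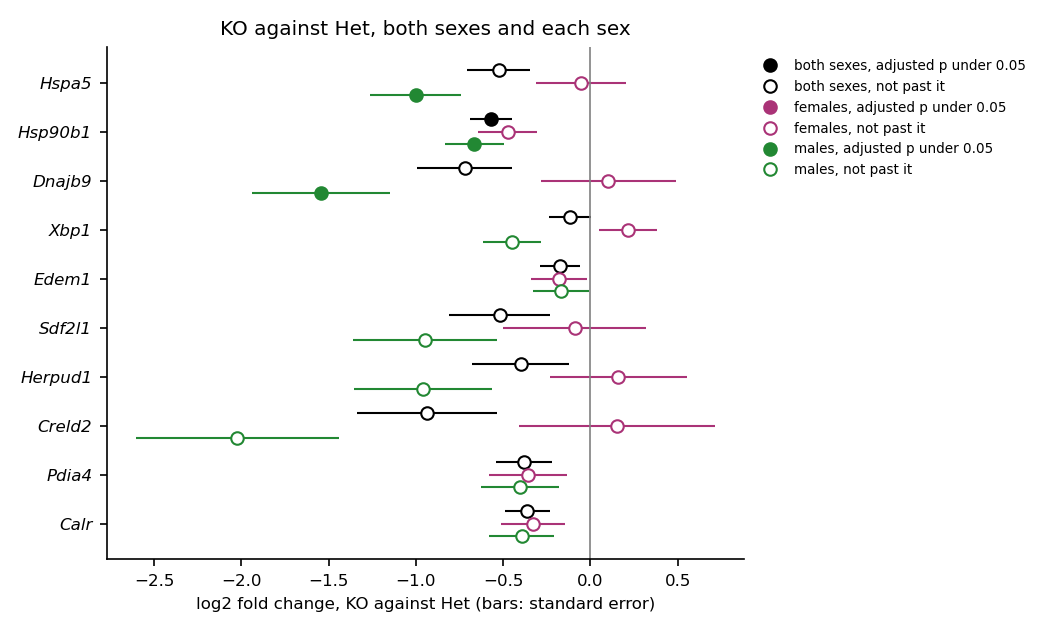
log2 fold change of each of the 10 genes, KO against Het, over both sexes and within each sex, with standard errors as bars and filled symbols for an adjusted p under 0.05. All 10 values in males lie below 0, and those of Creld2 and Dnajb9 are the farthest from 0 (-2.02 and -1.55), whereas the values in females lie between -0.47 and 0.21.

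Hspa5 and Hsp90b1 are the main ER members of the HSP70 and HSP90 chaperone families. Hspa5 (chr2:34661982-34668880 on GRCm39, plus strand), which also holds the sensors inactive until unfolded protein draws it away, was at 489, 509 and 540.1 CPM in Het females and 383, 449 and 651 CPM in KO females. In males it was at 616, 735 and 1251 CPM in Het livers and 369, 454 and 477 CPM in KO livers. The genotypes overlapped in females, where the KO values lay on both sides of the Het values, and did not overlap in males. The KO mean was 0.965 times the Het mean in females and 0.500 times in males. The log2 fold change was -1.001 ± 0.26 in males (adjusted p = 0.0381), -0.05 ± 0.26 in females (adjusted p = 0.919) and -0.53 ± 0.18 over both sexes (adjusted p = 0.0576).

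Hsp90b1 (chr10:86526073-86541446, minus strand), which encodes GRP94, was at 600.3, 618 and 687 CPM in Het females and 399, 431 and 543 CPM in KO females. In males it was at 610.0, 733 and 892 CPM in Het livers and 433, 482 and 494 CPM in KO livers. Every KO liver lay below every Het liver of either sex. This was the case for 1 of the 10 genes and for 4.64% of all tested genes. Its log2 fold change was -0.57 ± 0.12 over both sexes, -0.47 ± 0.17 in females (adjusted p = 0.0899) and -0.67 ± 0.17 in males (adjusted p = 0.0351). The call over both sexes held in all 23 alternative fits, with values from -0.64 to -0.51.

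Calr (chr8:85567946-85573667, minus strand) encodes calreticulin, a lectin chaperone of glycoproteins that also binds calcium. It was at 377, 516 and 533 CPM in Het females, 320.0, 353 and 464 CPM in KO females, 516, 564 and 647 CPM in Het males and 383, 456 and 476 CPM in KO males. The genotypes overlapped in females and not in males. The log2 fold change was of similar size in both sexes, -0.33 ± 0.18 and -0.39 ± 0.18, and -0.36 ± 0.13 over both (adjusted p = 0.0671).

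The cochaperones Dnajb9 and Sdf2l1 assist Hspa5, and Dnajb9 is also known to restrain Ern1. Dnajb9 (chr12:44252341-44257171, minus strand) was at 25.1, 28.9 and 43.6 CPM in Het females and 29.3, 33.8 and 41.8 CPM in KO females, with overlapping genotypes. In males it was at 25.9, 40.04 and 92.8 CPM in Het livers and 15.8, 17.9 and 20.6 CPM in KO livers, the lowest 3 of the 12. The KO mean was 0.342 times the Het mean in males (log2 fold change -1.55 ± 0.40, adjusted p = 0.0398) and 1.07 times in females (0.10 ± 0.39, adjusted p = 0.888). Sdf2l1 (chr16:16948002-16950252, minus strand) ranged from 6.54 to 44.1 CPM in Het livers and from 9.54 to 17.0 CPM in KO livers. Its genotypes overlapped in both sexes, and it was not called in males (-0.95 ± 0.41, adjusted p = 0.188) or females (-0.09 ± 0.41).

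Creld2 and Pdia4 act on disulfide bonds of folding proteins. Creld2 (chr15:88703795-88710890, plus strand), which encodes an ER stress-inducible protein of this kind, was at 13.4, 16.8 and 19.9 CPM in Het females and 10.8, 14.7 and 30.2 CPM in KO females. In males it was at 23.4, 32.5 and 118.1 CPM in Het livers and 11.8, 14.5 and 16.4 CPM in KO livers. The genotypes overlapped in females and not in males, where 1 Het liver was far above the others. The KO mean was 0.245 times the Het mean in males, the lowest ratio of the 10 genes, and the log2 fold change of -2.02 ± 0.58 did not pass the adjusted threshold (adjusted p = 0.0650, unadjusted p = 0.00583). Pdia4 (chr6:47770077-47790462, minus strand), a protein disulfide isomerase, ranged from 195 to 335 CPM in Het livers and from 136.1 to 237 CPM in KO livers. It was not called over both sexes (-0.38 ± 0.16, adjusted p = 0.106), and the values in females (-0.36) and males (-0.40) were close.

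Xbp1 (chr11:5470606-5483027, plus strand), the transcription factor downstream of Ern1, was at 104, 133 and 155 CPM in Het females and 129, 156 and 170.1 CPM in KO females. In males it was at 199, 208 and 211 CPM in Het livers and 125.8, 163 and 165 CPM in KO livers. The genotypes overlapped in females and not in males. Its log2 fold change was 0.21 ± 0.17 in females (adjusted p = 0.432), the highest of the 10 genes, and -0.45 ± 0.17 in males (adjusted p = 0.129). These gene-level counts do not separate spliced from unspliced Xbp1 mRNA, so they hold no measure of Ern1 activity.

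Edem1 and Herpud1 serve ER-associated degradation, Edem1 as a lectin that marks misfolded glycoproteins and Herpud1 as a membrane component of the degradation complex. Edem1 (chr6:108805457-108838955, plus strand) ranged from 196 to 267 CPM in Het livers and from 155 to 229 CPM in KO livers, and its log2 fold change was -0.17 over both sexes (adjusted p = 0.293), -0.18 in females and -0.17 in males. Herpud1 (chr8:95113022-95123141, plus strand) was at 278, 297 and 628 CPM in Het females, 259, 510 and 576 CPM in KO females, 329, 621 and 680 CPM in Het males and 220, 266 and 351 CPM in KO males. Livers of the same group differed in Herpud1 by more than the genotype means did in females, and the genotypes overlapped in both sexes. The log2 fold change was -0.96 ± 0.39 in males (adjusted p = 0.164) and 0.16 ± 0.39 in females.

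**Figure D2:**
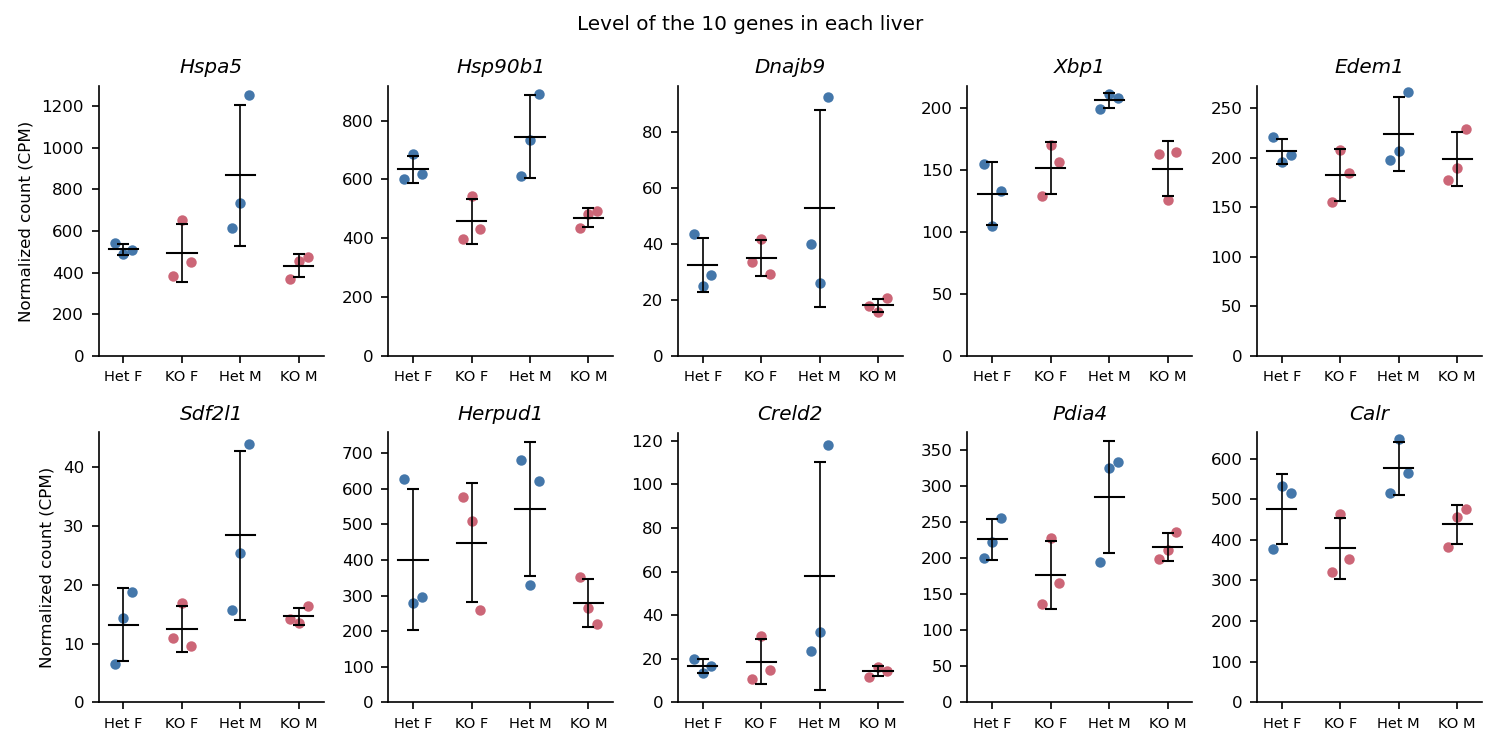
Normalized level (CPM) of each of the 10 genes in each of the 12 livers, by group, with the group mean and SD (n = 3) as lines and bars. In Hspa5, Dnajb9, Sdf2l1 and Creld2 the mean and SD of the Het males are widened by 1 liver, at 1251, 92.8, 44.1 and 118.1 CPM.

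Considering the livers across genes, every KO male lay below every Het male for 6 of the 10 genes (Hspa5, Hsp90b1, Dnajb9, Xbp1, Creld2 and Calr), where 15.4% of all tested genes did so. In females this held for 1 gene, Hsp90b1, against 14.7% of all tested genes. The high Het values came mainly from Het_M_137, which was the highest of the 12 livers for 7 of the 10 genes and above the mean of the 12 for all 10. Relative to the mean of the other Het males it was 4.23 times as high for Creld2, 2.81 times for Dnajb9, 2.14 times for Sdf2l1 and 1.85 times for Hspa5, but 1.01 times for Xbp1 and 0.970 times for Calr. Het_M_137 was the highest liver for 7.48% of all tested genes, and for 33 of the 128 tested genes of the ER lists described below (25.8%). Without Het_M_137, the mean of the KO males was 0.642 times that of the remaining Het males for Hspa5, 0.699 for Hsp90b1, 0.548 for Dnajb9, 0.736 for Xbp1, 0.509 for Creld2 and 0.754 for Calr. For the genes whose genotypes overlapped in males it was 0.983 for Edem1, 0.828 for Pdia4, 0.713 for Sdf2l1 and 0.553 for Herpud1.

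**Figure D3:**
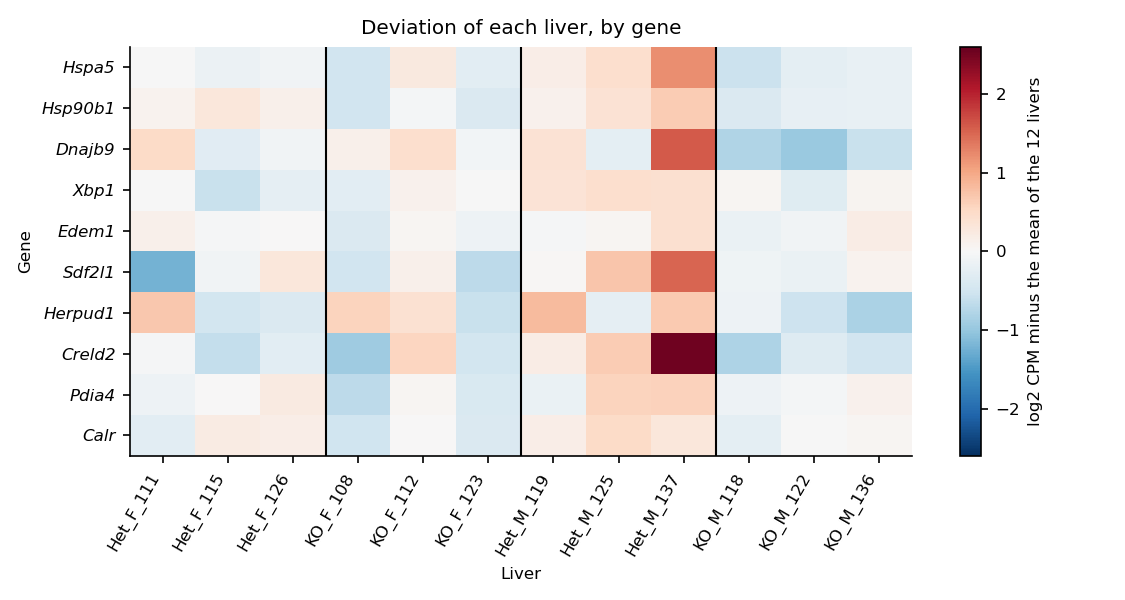
log2 CPM of each gene in each liver minus the mean over the 12 livers, with the 4 groups divided by lines. The column of Het_M_137 is positive for all 10 genes and reaches 2.53 for Creld2, and KO_F_123 and KO_M_122 are negative for all 10.

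The 3 calls in males all held without Het_F_111, Het_F_115, Het_F_126, KO_F_108 or KO_F_123, with Dnajb9 at an adjusted p of 0.0394 to 0.04997. They did not all hold when any other single liver was left out. Without Het_M_137 none of the 10 genes was called in males (Hspa5 -0.65, adjusted p = 0.120, Hsp90b1 -0.53, adjusted p = 0.114, and Dnajb9 -0.88, adjusted p = 0.0848). None was called either without KO_M_118, KO_M_122 or KO_M_136, although Hspa5 kept a log2 fold change of -1.08 to -0.90 there. Without Het_M_125 only Dnajb9 was called (-1.88, adjusted p = 0.0166), without Het_M_119 Hspa5, Hsp90b1 and Creld2 were (Creld2 -2.41, adjusted p = 0.0385), and without KO_F_112 Hspa5 and Hsp90b1 were. All 10 values in males stayed below 0 in each of these fits. Fewer genes in all were called in most of them as well, between 539 and 785 without Het_M_119, Het_M_125, Het_M_137, KO_M_118 or KO_M_136 against 1441 with all livers. Over both sexes 4 genes were called without Het_M_119 (Hspa5, Hsp90b1, Creld2 and Pdia4) and 4 without KO_F_112 (Hspa5, Hsp90b1, Pdia4 and Calr), 2 without Het_M_125 (Hsp90b1 and Dnajb9) and 2 without Het_F_111 (Hsp90b1 and Calr).

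The design also asks whether the genotype difference depended on sex. The difference was more negative in males than in females for 9 of the 10 genes, where 48.4% of all tested genes went that way. The male minus the female log2 fold change was -2.18 for Creld2, -1.65 for Dnajb9, -1.12 for Herpud1, -0.95 for Hspa5, -0.86 for Sdf2l1 and -0.66 for Xbp1. It lay between -0.19 and 0.01 for Hsp90b1, Calr, Pdia4 and Edem1, whose signs changed under some alternative fits. Without Het_M_137 the differences of Creld2, Dnajb9, Hspa5 and Sdf2l1 were smaller. In that fit the values in males were -0.99 for Creld2, -0.88 for Dnajb9, -0.86 for Herpud1, -0.65 for Hspa5, -0.50 for Sdf2l1 and -0.45 for Xbp1. Those in females were 0.14, 0.09, 0.15, -0.07, -0.10 and 0.20 in the same order. The interaction test called 0 of the 10 genes (lowest adjusted p = 0.449), and 0.0465% of all tested genes. At an unadjusted p under 0.05 there were 4, Dnajb9 (0.0123), Xbp1 (0.0161), Creld2 (0.0217) and Hspa5 (0.0232), where 9.28% of all tested genes were under that limit, and DESeq2 and limma also called none. A different response of males and females was thus not shown for any of the 10 genes at 3 mice per group. Between the sexes, over both genotypes, 0 of the 10 genes were called (lowest adjusted p = 0.244 for Xbp1, 0.32 higher in males on the log2 scale), against 1.02% of all tested genes. Under an unadjusted p of 0.05 there were 2, where 13.8% of all tested genes were under that limit. DESeq2 and limma called none.

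Levels can be compared between the genes per transcript length, in transcripts per 1000000 (TPM). In Het livers the order of the mean TPM was Hspa5 (262 ± 106, SD, n = 6), Herpud1 (216 ± 81.8), Calr (215 ± 29.6), Hsp90b1 (201 ± 30.5), Pdia4 (81.5 ± 17.9), Xbp1 (76.2 ± 16.1), Edem1 (38.5 ± 5.78), Creld2 (21.7 ± 23.2), Sdf2l1 (15.4 ± 9.35) and Dnajb9 (13.3 ± 7.90). The first 4 did not differ beyond their spread, nor did Pdia4 from Xbp1, nor the last 4 (Edem1, Creld2, Sdf2l1 and Dnajb9) from their neighbours among these 4. The steps from Hsp90b1 to Pdia4 and from Xbp1 to Edem1 were larger than the SDs. In KO livers Hspa5 was at 180.2 ± 30.8 TPM and Dnajb9 at 8.31 ± 3.19 TPM, and the same 4 genes were the most abundant. The small RNAs Rn7s1, Rn7s2 and Rn7sk held 50.04% to 59.9% of all TPM in each liver, which lowers the TPM of every other gene.

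The livers varied in Hspa5 beyond the group means, and some genes varied with it. Deviations of log2 CPM from the 4 group means over the 12 livers, scaled to an SD of 1, were compared with those of Hspa5 by their root mean square difference for 13417 genes with a mean of at least 1 CPM. Creld2 was the nearest gene (0.213), and Hsp90b1 and Edem1 ranked 9 and 11. Pdia4 ranked 90, Dnajb9 159 and Sdf2l1 411, whereas Calr (1487), Xbp1 (2539) and Herpud1 (5858) were far from Hspa5. The 5 nearest genes outside the 10 were Srprb (0.352), Trim68 (0.364), Gmppb (0.381), Rrbp1 (0.396) and Zbtb7c (0.398). All of these distances include Het_M_137.

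The surrounding pathway was described with 8 further lists, in which 128 of 130 genes were tested. Over both sexes 18 of the 128 were lower (14.1%) and 11 higher (8.59%) in KO livers, where 10.2% of all tested genes were called lower and 12.2% higher, with a median log2 fold change of -0.09. In females 4 were lower (3.12%) and 11 higher (8.59%), where 5.1% of all tested genes were called lower and 5.94% higher. In males 11 were lower (8.59%) and 2 higher (1.56%), where 2.98% of all tested genes were called lower and 4.47% higher. The median was 0.01 in females and -0.15 in males.

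Of 12 sensors and transducers, 1 was lower and 1 higher. Creb3l3 encodes a liver transcription factor that is made as an ER membrane protein and released by cutting, as Atf6 is. Its level fell from 245 ± 38.5 to 121.6 ± 36.1 CPM (SD, n = 6 each, log2 fold change -1.02 ± 0.20, adjusted p = 0.0046). Atf6b, a relative of Atf6, rose by 0.43 (adjusted p = 0.0199). Its value was 0.68 in females (adjusted p = 0.0232) and 0.17 in males (adjusted p = 0.560). The sensors themselves were not called: Ern1 was at -0.22 (adjusted p = 0.333), Atf6 at 0.02 (adjusted p = 0.875) and Eif2ak3 at 0.32 (adjusted p = 0.336). In the list of the Eif2ak3 branch, 3 of 12 genes were higher and 1 lower, with a median of 0.48. Asns, which makes asparagine, rose from 4.61 ± 5.05 to 24.4 ± 13.8 CPM (3.08 ± 0.51, adjusted p = 0.00314), Trib3, a pseudokinase induced by Atf4 and Ddit3, rose by 1.26 ± 0.28 (adjusted p = 0.0100) and Atf4 rose by 0.54 ± 0.16 (adjusted p = 0.0339). The Atf4 call was lost in 11 of 23 alternative fits. In females Asns (4.16, adjusted p = 0.0131), Trib3 (1.40, adjusted p = 0.0484) and Atf4 (0.90, adjusted p = 0.0318) were called. In males Asns (2.01, adjusted p = 0.109), Trib3 (1.13, adjusted p = 0.113) and Atf4 (0.18, adjusted p = 0.687) were not. Asns was near the floor in Het females, at 0.077 to 1.53 CPM (3 to 71 counts), and at 4.86 to 13.2 CPM in Het males. Its value in females therefore rests on low counts. The hormone gene Fgf21 was lower (-1.92 ± 0.52, adjusted p = 0.0230, a call lost in 2 of 22 alternative fits), at 0.25 ± 0.24 CPM in KO livers. Its value was -3.09 in females (adjusted p = 0.0232) and -0.74 in males (adjusted p = 0.583). The interaction test called no gene of either list, so a difference between the sexes was not shown. Ddit3 (CHOP), which promotes cell death under lasting ER stress, was at 5.32 ± 1.71 CPM in Het and 3.86 ± 1.04 CPM in KO livers and was not called (-0.46 ± 0.25, adjusted p = 0.199).

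Of 20 other ER chaperones and cochaperones, 4 were lower and 2 higher. Canx, the membrane-bound relative of Calr, fell from 456 ± 38.5 to 299.5 ± 32.4 CPM (-0.61 ± 0.10, adjusted p = 0.00235) and was lower in females (-0.66, adjusted p = 0.0195) and in males (-0.56, adjusted p = 0.0415). Cnpy3 was lower as well (-0.30, a call lost in 7 of 23 alternative fits), whereas Dnajc10, a disulfide reductase with a J domain, rose by 0.47 and Cdnf, at a mean of 0.61 CPM in KO livers, by 1.28 (a call lost in 6 of 22 alternative fits, with values from 0.26 to 1.97). Among 17 protein disulfide isomerases and oxidases, Pdia3 (-0.58), Pdia6 (-0.55) and Erp44 (-0.34, a call lost in 8 of 23 alternative fits) were lower and the oxidase Qsox1 rose by 0.87 (adjusted p = 0.000485). The glycoprotein folding cycle (9 genes) had 3 lower, Canx again, the folding sensor Uggt1 (-0.37, a call lost in 1 of 23 alternative fits) and the glucosidase subunit Ganab (-0.24, a call lost in 12 of 23 alternative fits), and 1 higher, the Uggt1 paralogue Uggt2 (1.11 ± 0.21, adjusted p = 0.0037).

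Of 25 genes of ER-associated degradation, 3 were lower and 2 higher. Derl2 and Derl3 encode derlins, membrane proteins of the degradation channel. Derl2 fell from 74.8 ± 10.7 to 48.4 ± 3.74 CPM (-0.62 ± 0.09, adjusted p = 0.000825), and Derl3 was at 0.45 to 15.3 CPM in Het livers and 0.21 to 0.88 CPM in KO livers, so that the genotypes overlapped (-2.64 ± 0.60, adjusted p = 0.0113). The call of Derl3 was lost in 2 of 22 alternative fits. Erlec1 and Herpud2 each were higher, by 0.38 and 0.39, and the call of Herpud2 was lost in 9 of 23 alternative fits. Of 23 genes of translocation and signal peptide processing 2 were lower, Sec62 (-0.42) and the signal peptidase subunit Sec11a (-0.32, a call lost in 3 of 23 alternative fits), and none was higher. Of 12 genes of the COPII coat, which carries cargo out of the ER, 2 were lower, Sar1b (-0.78 ± 0.19, adjusted p = 0.0139) and Sec23a (-0.28, a call lost in 13 of 23 alternative fits), and Sec24b was higher (0.45).

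**Figure D4:**
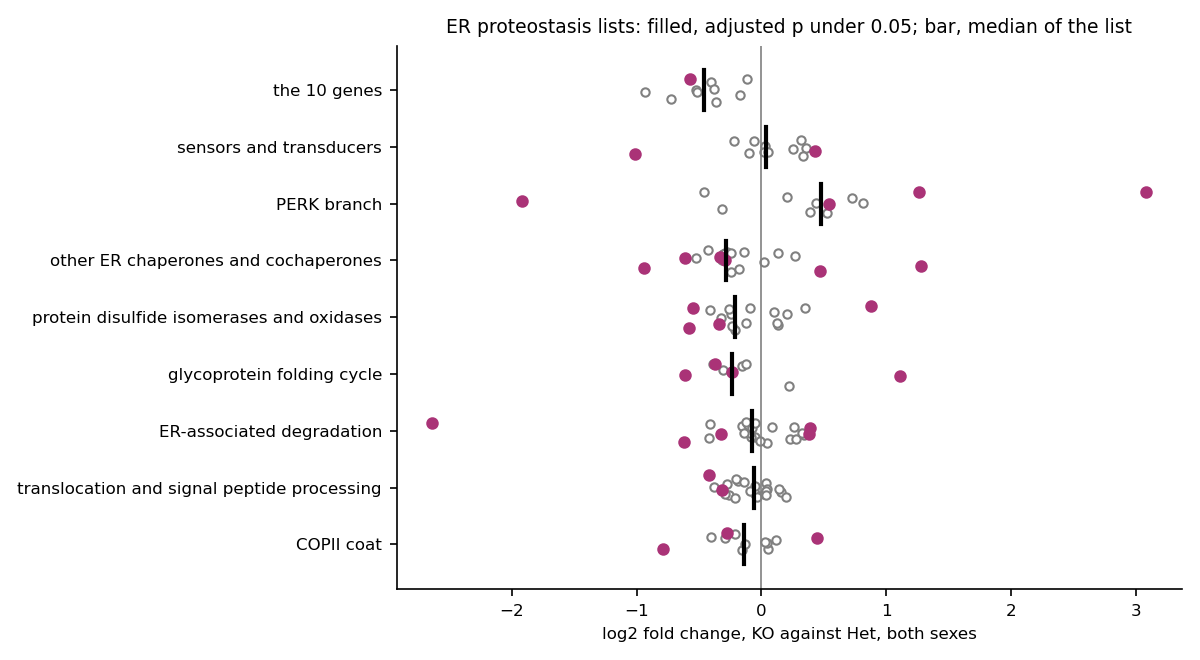
log2 fold change over both sexes of each tested gene in the 10 genes and the 8 further ER lists, filled where the adjusted p was under 0.05, with the median of each list as a bar. The median is -0.46 for the 10 genes and 0.48 for the Eif2ak3 (PERK) branch, and lies between -0.28 and 0.04 for the other lists.

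The genes with an exact ERSE were looked at as a group, chosen after values of the livers had been seen. Of 37 such genes 22 were tested, 17 had a negative log2 fold change over both sexes, and 4 were called lower and 0 higher, with a median of -0.38. Over all tested genes 48.2% were negative, 10.2% were called lower and 12.2% higher, with a median of 0.02. The 10 of them that belong to the 10 genes or to the ER lists (Hspa5, Hsp90b1, Creld2, Calr, Canx, Derl3, Dnajc3, Ero1b, Pdia6 and Syvn1) were all negative, with a median of -0.54, and held all 4 calls (Hsp90b1, Canx, Derl3 and Pdia6). The other 12 had 7 negative values, no call and a median of -0.13. Hspa5, Hsp90b1, Creld2 and Calr, with the call of Hsp90b1, belong to the 10 genes, whose negative values were already given above. The contrast with the other 12 is therefore a description and no separate support for these 4. With these 4 left out, 18 genes with an exact ERSE were tested and 13 were negative. Of the 18, 3 were called lower and 0 higher, with a median of -0.28. The elements of the 3 called genes outside the 10 are shown for comparison with those above.
Canx, chr11:50216622-50216650, minus strand: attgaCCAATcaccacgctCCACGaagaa
Derl3, chr10:75729071-75729099, plus strand: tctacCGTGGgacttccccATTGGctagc
Pdia6, chr12:17316452-17316550, plus strand: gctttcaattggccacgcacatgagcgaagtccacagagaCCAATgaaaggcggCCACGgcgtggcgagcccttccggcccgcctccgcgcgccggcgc
Dnajc3 (-0.25, adjusted p = 0.102), Ero1b (-0.41, adjusted p = 0.101) and Syvn1 (-0.42, adjusted p = 0.411) hold the same element and were not called over both sexes. Ero1b was called lower in males (-0.95, adjusted p = 0.0349) and not called in females (0.12, adjusted p = 0.774). Dnajc3 and Syvn1 were called in neither sex. Syvn1, the ubiquitin ligase of ER-associated degradation, was at 210 CPM in Het_M_137 and at most 53.8 CPM in the other livers, and its value was 0.12 without that liver. Derl3 was also highest in Het_M_137 (15.3 CPM, against at most 5.07 CPM elsewhere), and its value was -2.88 to -2.09 without single mice.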

How the data were processed

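Stranded total RNA libraries, depleted of ribosomal RNA, were sequenced by the authors and processed with nf-core/rnaseq. Per the labels and the methods, reads were aligned with STAR 2.7.9a to GRCm39 and GENCODE M34 genes were quantified with Salmon 1.10.1. The deposited estimated counts are not normalized. They were rounded for testing, since 12.0% are not whole. The deposited TPM values are scaled by length to one total per library. A table of estimated counts scaled by transcript length, deposited by the authors, served as an alternative, and a further table scaled to library size was not used.

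Genes were kept where 3 or more livers had 5 or more reads once scaled to the median library size. edgeR 4.0.16 in R 4.3.3 was used for quasi-likelihood F tests with TMM scaling, robust estimation, a prior count of 2 and the newer quasi-likelihood method, on means of the 4 groups (3 livers each, all 12 in 1 fit), with contrasts for genotype, genotype within each sex, interaction and sex. P-values were adjusted by Benjamini-Hochberg over all tested genes and called under 0.05. Standard errors came from the F statistic. CPM were scaled by TMM factors. The filter was first applied to rounded counts and was moved to the deposited values after the numbers of called genes had been seen. The fit was tested on simulated counts, where it recovered most changed genes, but the share of unchanged genes among its calls was above the adjusted p limit, so calls near that limit are less certain than their adjusted p states. Alternatives included DESeq2 1.42.0 and limma 3.58.1 on log2 TPM. All labelled mice were kept. Livers of the same group differed by 86.8 to 226 chi-square units per degree of freedom, far beyond counting noise, and no liver was a copy of another. Counts cover each gene with an error that is mainly that between mice.

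The 10 genes, the 8 ER lists and the 10 marker lists were chosen with earlier results of these data known. Named were the 10 genes, Xpa and Ercc8, the called genes with the 4 smallest p-values of each ER list, Atf4, Ddit3, Atf6, Ern1 and Eif2ak3, and the 5 genes nearest to Hspa5. The motif search, Dnajc3, Ero1b, Syvn1, Manf and the description of Het_M_137 were chosen after values were seen. Gene coordinates are from GENCODE M39 on GRCm39.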

Additional observations from a re-analysis of the deposited data

Results flagged for a closer look

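In the 6 livers of each genotype, the gap of the most extreme liver to its neighbour was set against the range of the group for each of the 10 genes by Dixon's criterion. Of 20 such groups 5 were beyond the 95% limit for 6 values, which about 1 in 20 pass when all values come from 1 normal distribution. These groups pool both sexes on the CPM scale and the 10 genes are not independent, so that rate need not hold here. Het_M_137 was too far above the other Het livers for Hspa5 (1251 CPM), Dnajb9 (92.8 CPM), Edem1 (267 CPM) and Creld2 (118.1 CPM). KO_F_112 was too far above the other KO livers for Creld2 (30.2 CPM).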

How the results depend on the processing

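Over both sexes 1 of the 10 genes was called. The count was 3 with scaling by library size only, 5 with DESeq2, 2 with limma on log2(TPM + 0.1), and 1 to 4 when single mice were left out. In females 0 were called, against 1 with library size only, DESeq2 and limma with either pseudocount, and 0 without any single mouse. In males 3 were called, against 4 with DESeq2, 2 with library size only, 1 without a filter, 0 with limma on log2(TPM + 1) or log2(TPM + 0.1), 1 with the 6 male livers alone, and 0 to 3 when single mice were left out. For the interaction and for sex the count was 0 in all fits run.

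Values near 0 changed sign. In females, leaving out single mice gave -0.30 to 0.085 for Hspa5, -0.063 to 0.36 for Dnajb9, -0.43 to 0.23 for Sdf2l1, -0.078 to 0.63 for Herpud1 and -0.38 to 0.41 for Creld2, and limma gave -0.031 and -0.039 for Creld2 (pseudocounts 1 and 0.1). For the interaction, Hsp90b1 was 0.0295 and 0.0297 with limma. Edem1 was -0.0055 with relative log expression scaling, -0.0056 with DESeq2 and -0.062 with length-scaled counts, and -0.10 to 0.15 without single mice. Pdia4 was 0.11 with library size only and 0.18 with limma, and -0.25 to 0.18 without single mice. Calr was 0.10 with library size only and 0.0923 and 0.0928 with limma, and -0.17 to 0.10 without single mice. Without single mice Atf6 ran from -0.028 to 0.078 and Syvn1 from -0.60 to 0.12. The cause was not tested.

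Among all genes, 4330 were called over both sexes (3194 to 5045 over all alternatives). In females the count was 2135 (486 with the 6 livers of that sex, at least 844 without single mice), in males 1441 (2260 with DESeq2, 539 to 1876 without single mice), and for sex 197 (113 to 725 over all alternatives, with the highest from DESeq2). For the interaction it was 9, against 18 with relative log expression scaling, 15 with the stricter filter and without rounding, 162 with DESeq2, 48 and 30 with limma at the larger and smaller pseudocount, and 4 to 90 without single mice. With the filter on rounded counts, which was tried first and replaced after the data had been seen, 15 interaction genes were called and the same 1, 0 and 3 of the 10 genes.

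No paired analysis was possible because no mouse number is shared between groups. Groups of 3 mice limit the precision more than depth does, and the sample labels give no litter, age or batch for single mice.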

Other observations

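Het_M_137 stood out in other ER genes as well, listed here after its values had been seen. In this liver Derl3 was at 15.3 CPM against at most 5.07 CPM in any other liver, Syvn1 at 210 against 53.8 CPM, and Manf, a secreted ER stress protein, at 121 against 56.1 CPM. The sensors Ern1 (116 CPM against at most 102) and Eif2ak3 (41.1 against at most 37.8) were also highest there. Another Het male, Het_M_125, was the highest liver for 26 of the 128 tested ER list genes (20.3%), and for 9.81% of all tested genes. The KO females were the highest for 14 (KO_F_108, 10.9%), 13 (KO_F_112, 10.2%) and 0 (KO_F_123) of the 128. Over all tested genes these livers were the highest for 18.2%, 7.61% and 4.25%.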
